A study of Mus musculus with 8 samples.

Results

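Expression of the aminoacyl-tRNA synthetase genes was measured in mouse embryonic fibroblasts (MEFs) labelled Cebpg-/-, which lack both copies of the gene (4 samples) and in wild type MEFs (WT, 4 samples), all on the C57BL/6 strain background. The members were chosen by name: 20 genes of cytosolic enzymes and 16 genes of mitochondrial enzymes, whose symbols end in 2. A gene was measured where at least 1 probe set of the array names it alone, and its brightest probe set by the mean of the 8 arrays stands for it. On this basis 35 of the 36 genes were measured, 19 cytosolic and 16 mitochondrial, among 18193 genes in all. Dars was not analysed here. The cells were grown out of E13.5 embryos, and after plating at passage 3 they were kept for 48 hours before RNA was taken and hybridised to 1 array per sample. The labels name no treatment of either genotype. They call the samples biological replicates without saying whether each comes from its own embryo. A p-value here sets the difference between the genotypes against the spread between these samples.

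Aminoacyl-tRNA synthetases join each amino acid to its tRNA, the step that fixes the meaning of the genetic code. Nuclear genes encode a cytosolic set and a mitochondrial set, and the single genes Gars and Kars serve both compartments. Several cytosolic enzymes sit in a multisynthetase complex held together by the scaffold proteins Aimp1, Aimp2 and Eef1e1. Many genes of the cytosolic set are known targets of ATF4, a basic leucine zipper factor of the amino acid response, and C/EBPγ, the product of Cebpg, is a dimer partner of ATF4. Such dimers bind a composite element, joining an ATF site to a C/EBP site, of the form TGATGNAA.

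That element was looked for on both strands of the RefSeq promoter windows (GRCm38.p6), which reach from 250 bases before to 50 bases after each gene start. Windows were given for 12 measured cytosolic and 14 measured mitochondrial members. The element occurred in the windows of 5 cytosolic members, Aars, Gars, Iars, Tars and Yars, and in 0 of the 14 mitochondrial ones, where 4.51% of the 27025 genes in the table had it. The 28 bases around the match in Gars, Iars, Tars and Yars are shown because these genes are among those that were lower in Cebpg-/- cells below. Each is written along the strand on which the element reads TGATG, with the element in capitals.
Gars: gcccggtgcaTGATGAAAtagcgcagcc
Iars: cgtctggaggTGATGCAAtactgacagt
Tars: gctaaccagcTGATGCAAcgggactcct
Yars: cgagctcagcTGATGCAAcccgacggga
These stretches lie at chr6:55037961-55037988 (minus strand), chr13:49682127-49682154 (minus), chr15:11399656-11399683 (plus) and chr4:129189896-129189923 (plus). Counted from the gene start, the element spans bases -30 to -23 of Gars, 8 to 15 of Iars, -15 to -8 of Tars and 4 to 11 of Yars, so all 4 lie close to the start. The letters after TGATG are CAA in Iars, Tars and Yars and AAA in Gars.
The palindromic CRE sequence TGACGTCA, searched in the same way, was in 0 of the 12 cytosolic and 0 of the 14 mitochondrial members, against 2.03% of genes in the table. A match is a run of letters and says nothing of binding in these cells, and no match says only that the letters are not in this window.

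Expression is given on the log2 scale, on which a difference of 1 is a 2-fold change. The submitters' processing notes name RMA as the method. Array medians over probe sets lay between 2.70 and 2.76, which is low for RMA, and whether the GC-RMA variant was run is not known here, so the meaning of dim values is uncertain. The targeted gene, Cebpg, has 3 probe sets, and they disagree. The brightest read 6.60 ± 0.11 in Cebpg-/- and 6.78 ± 0.16 in WT cells (SD, n = 4 each), which overlapped, and its change of -0.17 missed the threshold (adjusted p = 0.275 in limma over all probe sets). The second read 5.53 ± 0.12 in Cebpg-/- and 6.32 ± 0.07 in WT cells (change -0.78, adjusted p = 0.000593). The third and dimmest had a change above 0, at 3.05 ± 0.10 in Cebpg-/- and 2.80 ± 0.14 in WT cells (0.26, unadjusted p = 0.0117, adjusted p = 0.0942). Which part of the gene is deleted, and so which of these sets checks the labels, is not given in the sources used here. Of 11 fibroblast markers all lay above the median probe set (2.73) in mean value. The 19 leukocyte markers had array means of 4.96 to 7.69 in Cebpg-/- and 3.66 to 5.61 in WT cultures, and 18 of them lay above that median (the exception is Itgam). Of 4 endothelial, 4 epithelial, 3 muscle and 3 erythroid markers, 1, 3, 1 and 0 did. The mean of 3 Y-linked genes was 1.43, 1.44, 5.63 and 5.62 on Cebpg-/- replicates 1 to 4. On WT replicates 1 to 4 it was 4.82, 1.52, 5.47 and 5.76. Low and high values occur in both genotypes, so the 4 samples of a genotype do not all come from a single embryo.

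Which synthetase genes differ in cells that lack Cebpg was asked first of the cytosolic set. Of its 19 measured genes 9 were lower in Cebpg-/- cells, none was higher and 10 missed the threshold (limma with Benjamini-Hochberg adjustment over all 18193 genes, threshold 0.05), where 3.99% of all genes were lower and 8.62% higher. Without 1 array these shares over all genes were 2.17% to 5.33% lower and 4.29% to 9.29% higher, and they dropped by more than 1.5 times without Cebpg-/- replicate 1 or 3 or WT replicate 1 or 3. At an unadjusted p under 0.05 in limma 13 passed, all with changes below 0. Over all 18193 genes 1977 passed that level with changes below 0 and 3184 with changes above 0. The 9 are Lars, Aars, Eprs, Sars, Tars, Cars, Yars, Iars and Gars, and their levels were 64.5% to 80.5% of WT. The median change of the 19 genes was -0.24 on the log2 scale against 0.00 over all genes, and 15 of the 19 changes were below 0 against 50.3% over all genes. In 11 of the 19 genes all 4 Cebpg-/- values lay below all 4 WT values, a separation found in 6.74% of all genes, and in none did they lie above. Cytosolic members are bright, with means of 6.58 to 10.59, and among the 4291 genes in that range 8.02% were called lower and 12.7% higher. In the same range 40.6% had changes below 0 and the median change was 0.04. All 4 Cebpg-/- values lay below all 4 WT values in 11.9% of these genes.

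**Figure D1:**
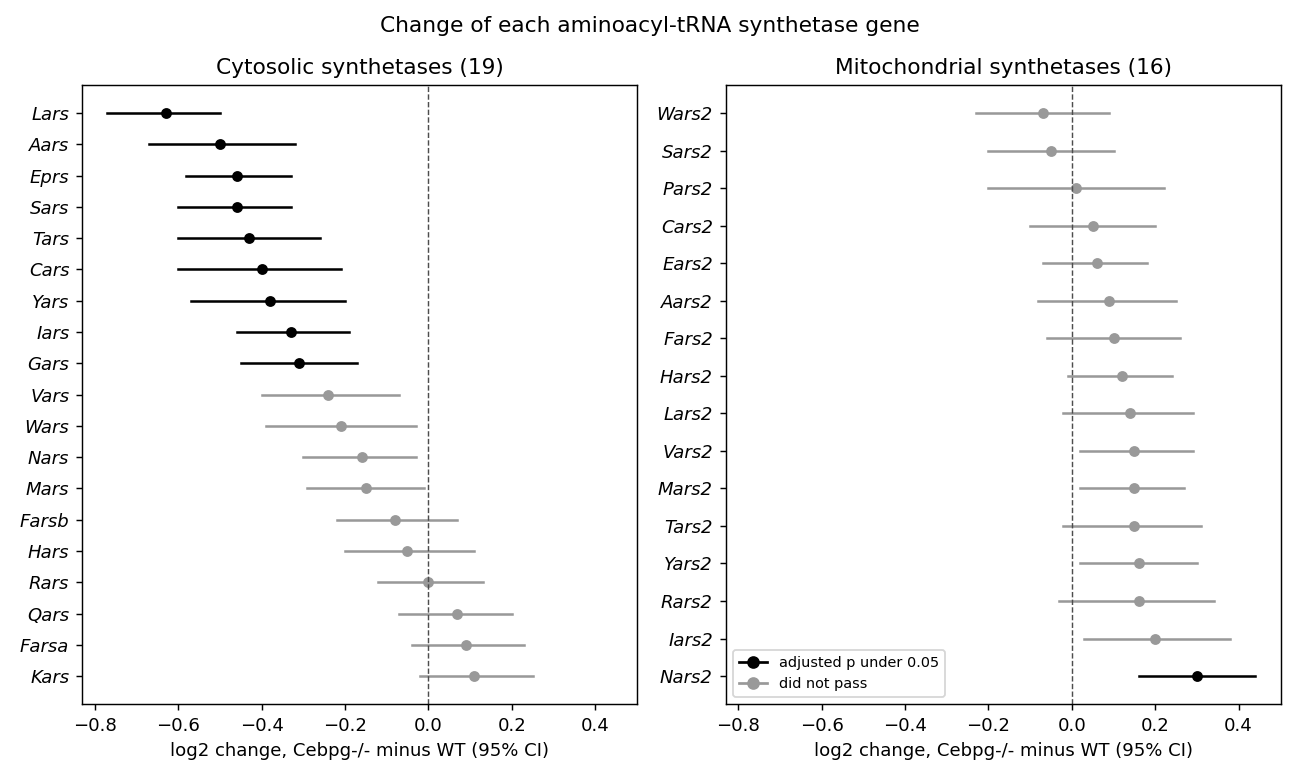
Log2 change (Cebpg-/- minus WT) of each measured synthetase gene with its 95% confidence interval from limma, cytosolic genes on the left and mitochondrial genes on the right, 4 arrays per genotype. Black marks genes that passed the adjusted threshold: 9 cytosolic genes left of 0, from Lars at -0.63 to Gars at -0.31, and Nars2 alone among the mitochondrial genes, at 0.30.

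Members of the multisynthetase complex were split. Lars, the leucyl-tRNA synthetase, which also senses leucine for the growth kinase mTORC1, had the deepest fall of the family. It read 8.05, 8.10, 8.10 and 8.20 on Cebpg-/- arrays, against 8.73, 8.70, 8.86 and 8.71 on WT arrays. Every Cebpg-/- value was thus under the lowest WT value by more than the spread within either genotype. The change was -0.63 (SE 0.061, adjusted p = 0.000383), a level of 64.5% of WT, and 0.868% of all genes had a lower change.

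Eprs encodes the bifunctional enzyme that charges both glutamate and proline tRNAs. It read 8.43, 8.55, 8.53 and 8.61 in Cebpg-/- cells, against 8.96, 8.99, 9.02 and 9.00 in WT cells, a change of -0.46 (SE 0.056, limma adjusted p = 0.00127). The genotypes did not overlap, and the WT arrays lay close together (SD 0.03). The 3 other Eprs probe sets gave -0.52, -0.51 and -0.58, all called over probe sets, the last one from a set below the median probe set. Iars, for isoleucine, read 9.22, 9.26, 9.17 and 9.32 in Cebpg-/- cells, against 9.54, 9.66, 9.49 and 9.59 in WT cells. Its change was -0.33 (SE 0.061, adjusted p = 0.00882) with no overlap, and its other probe set gave -0.27, also called.

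The other 4 measured enzymes of the complex did not pass. Kars, for lysine, was at 0.11 with a 95% interval from -0.02 to 0.25. Qars, for glutamine, was at 0.07 (interval -0.07 to 0.20) and Rars, for arginine, at 0.00 (-0.12 to 0.13). Falls as deep as those of Lars, Eprs or Iars lie outside these 3 intervals. Mars, for methionine (Mars1 in current nomenclature), read 8.42 to 8.53 in Cebpg-/- and 8.54 to 8.71 in WT cells, values that did not overlap, and its change of -0.15 missed the threshold (limma, adjusted p = 0.146). The complex as a whole thus had 3 of 7 measured members lower and a median change of -0.15. That the changes within the complex differ from each other was not tested.

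Among enzymes outside the complex, 6 of 12 were lower, with a median change of -0.27. Aars, which charges tRNA with alanine, read 8.89, 9.04, 8.82 and 9.08 on Cebpg-/- arrays, against 9.37, 9.41, 9.60 and 9.45 on WT arrays. The highest Cebpg-/- value stayed below the lowest WT value, and the change was -0.50 (SE 0.078, adjusted p = 0.00393), or 70.9% of the WT level. Its other probe set gave -0.41 and was called as well.

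Sars, for serine, read 8.99, 9.07, 8.92 and 8.90 in Cebpg-/- cells, against 9.44, 9.36, 9.48 and 9.45 in WT cells. These did not overlap, the change was -0.46 (SE 0.060, limma adjusted p = 0.00165), and a further probe set gave -0.48. No match to the element was found in the window of Sars, nor in that of Eprs. Tars, for threonine, read 8.84, 9.08, 8.87 and 9.04 in Cebpg-/- cells, against 9.35, 9.29, 9.41 and 9.51 in WT cells. Its change was -0.43 (SE 0.076, adjusted p = 0.00661), again with the genotypes apart.

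Cars, for cysteine, read 7.08, 7.36, 7.16 and 7.30 in Cebpg-/- cells, against 7.61, 7.47, 7.60 and 7.82 in WT cells (change -0.40, SE 0.089, adjusted p = 0.0173). The gap between the genotypes was narrow here, since the highest Cebpg-/- array (7.36) and the lowest WT array (7.47) lay closer to each other than the SD within either genotype (0.13 in Cebpg-/- and 0.15 in WT cells). The call was lost without Cebpg-/- replicate 1 (change -0.35, adjusted p = 0.0534) or replicate 3 (-0.38, 0.0535), and a dimmer Cars probe set at 3.86 gave -0.14 and did not pass. Yars, for tyrosine, read 6.30, 6.48, 6.28 and 6.50 in Cebpg-/- cells, against 6.73, 6.63, 6.80 and 6.93 in WT cells (change -0.38, SE 0.082, limma adjusted p = 0.0156). Its genotypes did not overlap, and without Cebpg-/- replicate 1 its change was -0.35 and its adjusted p 0.0506. Gars, for glycine, read 10.04, 10.15, 10.04 and 10.10 in Cebpg-/- cells, against 10.37, 10.32, 10.52 and 10.38 in WT cells. All Cebpg-/- arrays were lower, and the change was the smallest among the called genes at -0.31 (SE 0.062, adjusted p = 0.0117). Since Gars also makes the mitochondrial glycyl enzyme, this RNA serves both compartments.

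**Figure D2:**
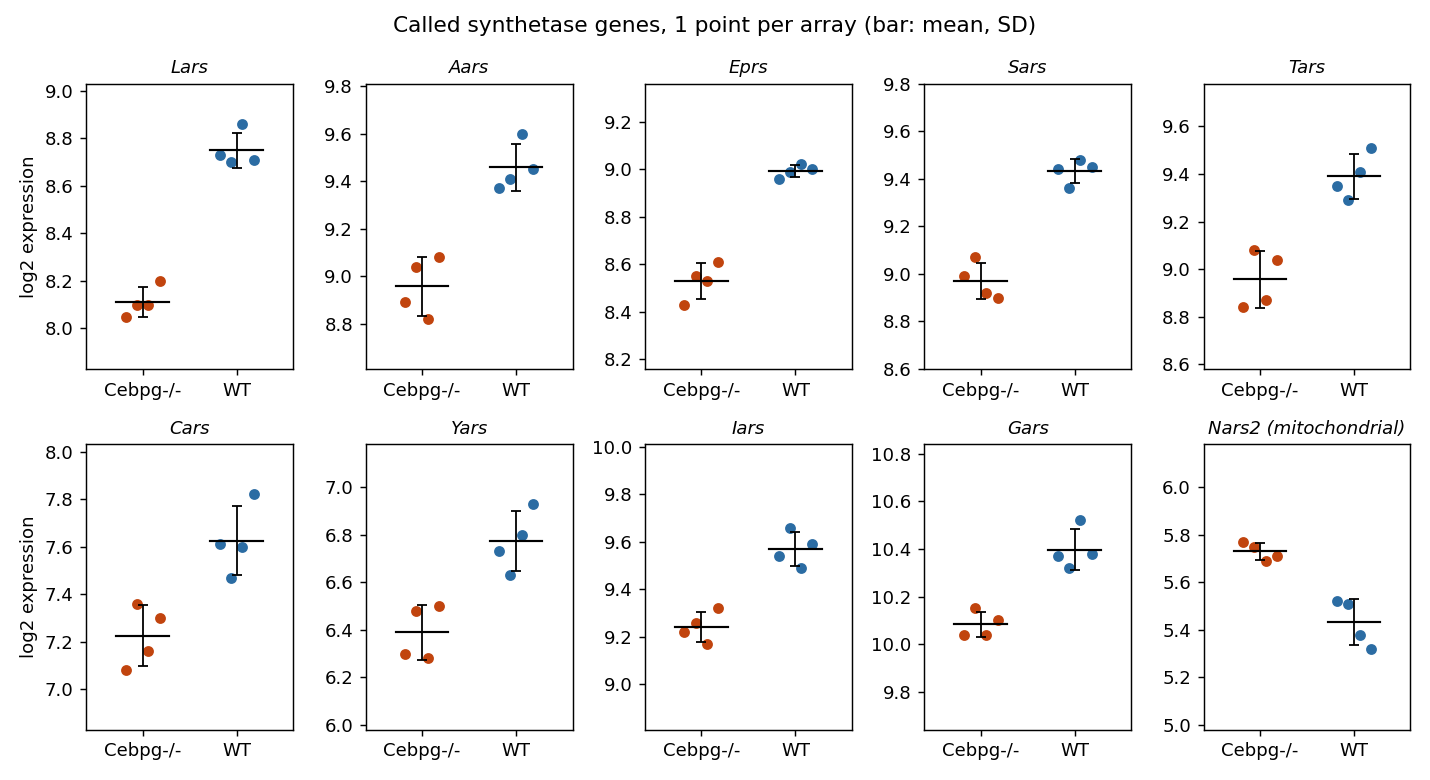
Log2 expression on each of the 8 arrays for the 9 cytosolic genes called lower and for Nars2, the mitochondrial gene called higher, with Cebpg-/- arrays left of WT arrays (points), the mean (long bar) and the SD (n = 4). The vertical axes differ in level but span the same range, and no Cebpg-/- point overlaps the WT points of its gene, with the widest gap in Lars (8.20 at most against 8.70 at least).

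Of the remaining 6 enzymes outside the complex, Vars (valine), Wars (tryptophan) and Nars (asparagine) had changes of -0.24, -0.21 and -0.16. None of these passed (limma, adjusted p = 0.0616, 0.115 and 0.112), although their 95% intervals stayed below 0. For Vars the genotypes were apart, at 6.74 to 6.99 in Cebpg-/- and 7.01 to 7.21 in WT cells, while for Wars and Nars they overlapped. The other Nars probe set, also bright, did not overlap, at 9.91 to 10.07 in Cebpg-/- and 10.15 to 10.27 in WT cells. Its change was -0.22 (limma, adjusted p = 0.0534 over probe sets). All 4 probe sets of Wars had changes between -0.21 and -0.15. The brightest one may also hold signal of similar transcripts, which the suffix _x_at of its name marks, as may those of Qars and Farsb.

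Farsa and Farsb, the subunits of the phenylalanyl enzyme, were at 0.09 (95% interval -0.04 to 0.23) and -0.08 (-0.22 to 0.07), and Hars, for histidine, was at -0.05 (-0.20 to 0.11). In all 3 the genotypes overlapped. Dimmer probe sets of Farsa and Farsb went other ways, at -0.29 (called over probe sets, adjusted p = 0.0394) for a Farsa set with a mean of 3.09, and at 0.26 for a Farsb set with a mean of 2.92. By structural class, 5 of 10 class I and 4 of 9 class II cytosolic enzymes were lower, with medians of -0.28 and -0.16. The bifunctional Eprs was counted in class I alone, so the class counts depend on where it is placed. Of the 7 genes called lower that have a promoter window, 5 held the composite element, and of the 5 that did not pass and have a window (Farsa, Farsb, Kars, Mars and Qars) none did. These counts are descriptions of few genes and were not tested.

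The mitochondrial enzymes charge the tRNAs encoded by mitochondrial DNA, for the few proteins made inside the organelle. Of 16 measured genes none was lower and 1, Nars2, was higher in Cebpg-/- cells. None was lower by limma at an unadjusted p under 0.05 either, since all 5 genes past that level had changes above 0. Over all 18193 genes 5161 passed that level, 1977 with changes below 0 and 3184 above 0, so 5 of 16 is near the background. Changes were above 0 in 14 of 16 genes, with a median of 0.13 and a range from -0.07 to 0.30. This depends on the scaling, since after quantile normalization 11 of 16 changes were above 0 and the median was 0.05, where genes of like brightness had a median of -0.01. Mitochondrial members are dim, with means of 2.56 to 6.22. Of the 6787 genes in that range 54% had changes above 0, and the median change was 0.02. In the same range 3.86% were called lower and 11.7% higher, so the counts of none lower and 1 higher are near the background. The ranges of the cytosolic and the mitochondrial genes do not overlap in brightness. Mars2 lay below the median probe set.

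Nars2, the mitochondrial asparaginyl enzyme, read 5.77, 5.75, 5.69 and 5.71 on Cebpg-/- arrays, against 5.52, 5.51, 5.38 and 5.32 on WT arrays. Each Cebpg-/- value lay above each WT value, and the change was 0.30 (SE 0.063, limma adjusted p = 0.0147), or 123% of the WT level. The call was lost after quantile normalization (0.23, adjusted p = 0.0712) and when its 2 probe sets were averaged (0.14, 0.121). The second of these sets is dim, at a mean of 1.34, and gave -0.02.

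In 3 other mitochondrial genes the genotypes were apart in the same direction without a call: Hars2 at 0.12, Mars2 at 0.15 and Vars2 at 0.15. A dimmer Hars2 probe set gave 0.29 (limma, adjusted p = 0.0774 over probe sets). With the mean of probe sets Hars2 was called higher (0.21, limma adjusted p = 0.0247) and Nars2 was not, so which gene is called depends on the choice of probe set. Over all genes 12.8% had every Cebpg-/- value above every WT value, and among genes of like brightness 15.4%, beside 4 of 16 here. Iars2 (0.20), Yars2 (0.16), Rars2 (0.16), Tars2 (0.15), Lars2 (0.14), Fars2 (0.10), Aars2 (0.09), Ears2 (0.06), Cars2 (0.05) and Pars2 (0.01) overlapped between the genotypes. The only changes under 0 were those of Sars2 (-0.05) and Wars2 (-0.07).

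The cytosolic enzyme and its mitochondrial counterpart charge the same amino acid, so their changes can be set side by side within each array. For leucine, Lars2 read 5.58, 5.59, 5.50 and 5.60 in Cebpg-/- cells, against 5.39, 5.60, 5.44 and 5.31 in WT cells, where Lars had fallen. Lars minus Lars2 was 2.48, 2.51, 2.60 and 2.60 on Cebpg-/- arrays, against 3.34, 3.10, 3.41 and 3.40 on WT arrays. The shift of -0.77 is the largest among the 16 pairs.

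For alanine, Aars2 read 4.74, 4.85, 4.90 and 4.76 in Cebpg-/- cells, against 4.85, 4.63, 4.63 and 4.81 in WT cells. Its genotypes overlapped while the difference Aars minus Aars2 did not, at 3.92 to 4.32 in Cebpg-/- and 4.52 to 4.97 in WT cells. For threonine, Tars2 read 5.84, 5.81, 5.87 and 5.74 in Cebpg-/- cells, against 5.56, 5.54, 5.78 and 5.79 in WT cells, and Tars minus Tars2 shifted by -0.58. For tyrosine, Yars2 read 6.33, 6.33, 6.37 and 6.19 in Cebpg-/- cells, against 6.09, 6.17, 6.09 and 6.24 in WT cells. Yars2 overlapped between the genotypes and Yars did not, and Yars minus Yars2 was -0.04, 0.15, -0.09 and 0.31 in Cebpg-/- cells, against 0.65, 0.46, 0.71 and 0.70 in WT cells.

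For isoleucine, Iars2 read 6.13, 5.98, 6.15 and 6.05 in Cebpg-/- cells, against 5.90, 5.68, 5.87 and 6.04 in WT cells, with an overlap only at WT replicate 4, and Iars minus Iars2 shifted by -0.53. For cysteine, Cars2 read 4.88, 5.04, 4.93 and 5.01 in Cebpg-/- cells, against 4.90, 5.04, 4.81 and 4.92 in WT cells. Its genotypes overlapped fully. Ears2, for glutamate, read 4.21, 4.29, 4.36 and 4.22 in Cebpg-/- cells, against 4.24, 4.18, 4.24 and 4.20 in WT cells. Sars2, for serine, read 4.30, 4.34, 4.12 and 4.19 in Cebpg-/- cells, against 4.28, 4.37, 4.20 and 4.30 in WT cells. These 2 genes overlapped as well.

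Over the 16 pairs, in which Fars2 stands beside both Farsa and Farsb, the change of the cytosolic gene was the lower one each time, though for Farsa (0.09) and Fars2 (0.10) both were nearly equal. No background share was worked out for this order, and it restates in part the falls of the cytosolic genes given above. In 12 pairs all 4 Cebpg-/- differences lay below all 4 WT differences, and in 4 pairs (Farsa, Hars, Rars and Wars with their counterparts) they overlapped. Among all pairs of 1 gene from the brightness range of the cytosolic members with 1 gene from that of the mitochondrial members, 14.4% were apart in this direction. The Nars pair reached -0.46 through a change on both sides, since Nars was at -0.16 and Nars2 at 0.30. The mean of all cytosolic members was 8.41 to 8.50 on Cebpg-/- and 8.66 to 8.73 on WT arrays, and that of all mitochondrial members 4.95 to 5.01 on Cebpg-/- and 4.85 to 4.89 on WT arrays. The difference between these means was 3.46, 3.48, 3.46 and 3.53 on Cebpg-/- arrays, against 3.82, 3.77, 3.87 and 3.86 on WT arrays. It is given as a description, without a test, since the members were chosen with results of these data known, and because levels of different probe sets cannot be compared only the shift between the genotypes, -0.34, carries meaning.

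**Figure D3:**
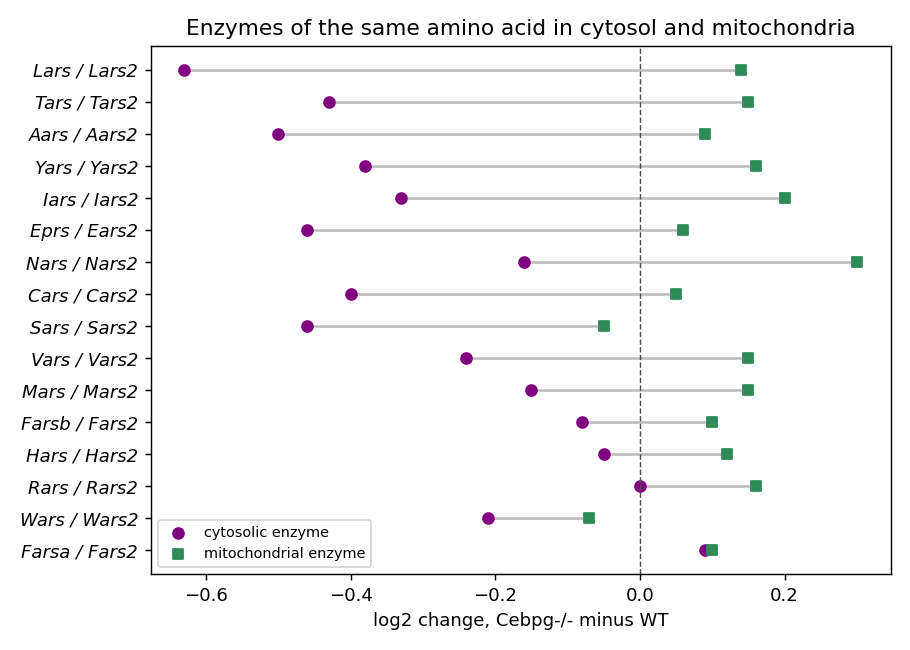
Log2 change (Cebpg-/- minus WT, n = 4 each) of the cytosolic enzyme (circles) and the mitochondrial enzyme (squares) of the same amino acid, 1 row per pair, ordered by the difference between both changes. The circle lies left of the square in all 16 rows, from a gap of 0.77 for Lars and Lars2 to nearly coinciding points for Farsa and Fars2.

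Other genes of tRNA charging were taken from a list of 17, of which 16 were measured, and among these 1 was lower, none higher and 15 missed the threshold, and the median change was 0.05. Over all genes 3.99% were lower and 8.62% higher, so this count is near the background. At an unadjusted p under 0.05 in limma 5 passed, 3 of them with changes above 0. Over all 18193 genes 5161 passed that level, 3184 of them with changes above 0, so this count is near the background as well. The gene called is Xpot, the exportin that carries tRNAs out of the nucleus. It read 8.32, 8.43, 8.43 and 8.48 in Cebpg-/- cells, against 8.92, 8.94, 8.98 and 8.80 in WT cells. The change was -0.49 (SE 0.062, limma adjusted p = 0.0015) with no overlap, and 2 further bright probe sets of Xpot gave -0.64 and -0.56.

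The scaffold genes of the multisynthetase complex were not called. Aimp1, Aimp2 and Eef1e1 had changes of 0.10, 0.09 and 0.17, and none passed (limma, adjusted p = 0.245, 0.319 and 0.0958). Aimp1 read 8.82, 8.91, 8.82 and 8.84 in Cebpg-/- cells, against 8.76, 8.71, 8.79 and 8.74 in WT cells, without overlap. The genes of the mitochondrial amidotransferase that makes glutaminyl-tRNA in the organelle, Qrsl1, Gatb and Gatc, were at 0.05, -0.04 and 0.16, and none passed. Eif2ak4, the kinase GCN2 that binds uncharged tRNA through a domain related to the histidyl enzyme, was at -0.18 (limma, adjusted p = 0.0931), with Cebpg-/- values of 5.26 to 5.47 below WT values of 5.51 to 5.64. Atf4 itself read 10.18 ± 0.09 in Cebpg-/- and 10.29 ± 0.03 in WT cells (SD, n = 4), a change of -0.11 (limma, adjusted p = 0.246). Its other probe sets gave -0.16 and, for a set below the median probe set, -0.18. Neither passed (limma, adjusted p = 0.198 and 0.196 over probe sets).

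The mean of the 19 leukocyte markers lay higher on 3 of 4 Cebpg-/- arrays than on any WT array. It varied widely within each genotype (SD 1.16 in Cebpg-/- and 0.92 in WT cultures). Of the 19 markers 1 was called higher and none lower, where 8.62% of all genes were higher and 3.99% lower. On Cebpg-/- replicates 1 to 4 the marker mean was 7.69, 4.96, 6.98 and 6.57, where the mean of the 9 called cytosolic genes was 8.43, 8.57, 8.43 and 8.56. On WT replicates 1 to 4 the marker mean was 3.66, 5.47, 5.41 and 5.61, and the mean of those 9 genes 8.90, 8.87, 8.98 and 8.98. The 9 genes were chosen by this contrast, so that their means are apart is a description. Fibroblast markers moved with the genotype too, with means of 9.43 to 9.76 in Cebpg-/- and 9.71 to 9.99 in WT cultures, a shift of -0.32 beside that of -0.24 in the mean of all cytosolic members. Of the 11 fibroblast markers 5 were called lower and none higher, against the same 3.99% of all genes lower and 8.62% higher. The part of these markers in the results was not tested. In bulk RNA, fewer cells of a type and less RNA per cell cannot be told apart.

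With the leukocyte marker mean as a covariate the median change of the cytosolic genes was -0.22 and that of the mitochondrial genes 0.13. Of the 9 calls 3 were kept, Lars (-0.63), Eprs (-0.44) and Sars (-0.42), while over all genes 117 were then called lower in place of 726. Aars was at -0.47 (limma, adjusted p = 0.0564) and Tars at -0.37 (0.0976), and Iars (-0.32), Gars (-0.28), Cars (-0.32) and Yars (-0.34) had adjusted p from 0.0926 to 0.198. The changes without a call were thus -0.47 to -0.28, against -0.50 to -0.31 without the covariate. Leaving out WT replicate 1 and Cebpg-/- replicate 1 together, the extremes of the marker mean, kept 4 calls, these 3 and Aars (-0.50), with 182 genes lower in all. The changes of the other 5 were -0.41 (Tars), -0.37 (Yars), -0.36 (Cars), -0.33 (Iars) and -0.31 (Gars). Nars2 was at 0.34 (adjusted p = 0.078) with the covariate and at 0.31 (0.0737) without both arrays.

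**Figure D4:**
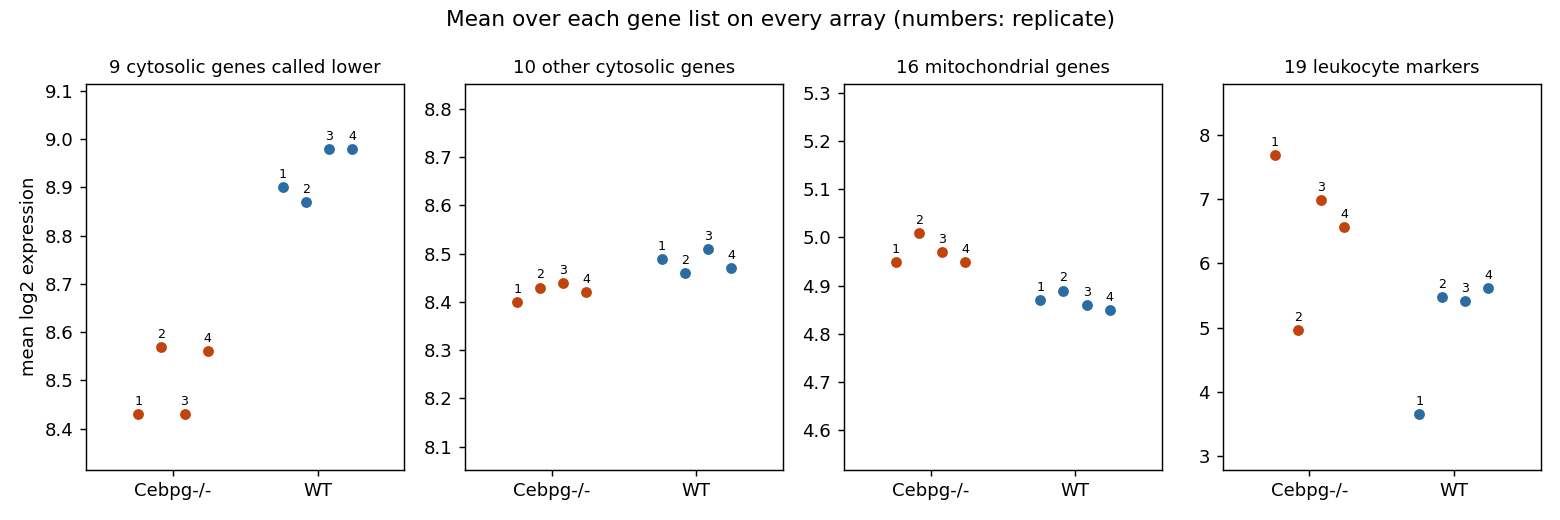
Mean log2 expression on every array over the 9 cytosolic genes called lower, the 10 other cytosolic genes, the 16 mitochondrial genes and the 19 leukocyte markers, with Cebpg-/- arrays left of WT arrays and the replicate number beside each point. The first 3 panels span the same range and the last a wider one; the first list was chosen by this contrast, so its separation is a description. The leukocyte means of Cebpg-/- replicates 1, 3 and 4 (6.57 to 7.69) lie above all WT values, and that of replicate 2 (4.96) lies among them.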

How the data were processed

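Total RNA of 4 Cebpg-/- and 4 WT samples, grouped by their titles, was measured on 1 Affymetrix array each. The authors deposited log2 expression values for each probe set on each array and made them with RMA, per the submitters' processing notes, of which no version, variant or setting is known here. Scanner files were not used here, so no background calls were made, and the number of arrays limits the precision. No 2 arrays were identical.

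Of 45101 probe sets 64 controls were left out. Through the platform's annotation 34945 name 1 gene, 932 several and 9160 none. Symbols were brought up to date by their Entrez IDs with RefSeq's table for GRCm38.p6, and Mars was found as Mars1. A model with genotype as its only term was fitted to 45037 probe sets (limma 3.58.1, R 4.3.3, lmFit and eBayes), and p-values of 18193 genes, each with its brightest probe set, were adjusted by Benjamini-Hochberg. The fit was tested on simulated data. Members, lists and alternatives were chosen with earlier results of these data known. Called members and the mitochondrial counterparts of called cytosolic members are given per array, the others by change or range. Same-numbered samples were checked for pairing by the correlation of their deviations from the genotype means, which was -0.271 to 0.133, so the numbers were not taken as pairs. One promoter sequence is not reported here.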

Additional observations from a re-analysis of the deposited data

Results flagged for a closer look

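In 3 of 70 sets of 4 arrays (35 genes in each genotype) 1 array lay apart from the others by most of the range, and chance alone gives about 1 in 20. The gap to the nearest array made up 0.887 of the range for Wars in Cebpg-/- replicate 1 (6.62, where the others read 6.58 to 6.59), 0.859 for Rars2 in Cebpg-/- replicate 2 (6.35, others 6.26 to 6.28) and 0.9 for Farsa in WT replicate 3 (7.09, others 7.16 to 7.17). The distances are small on the log2 scale, and none of these genes was called.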

How the results depend on the processing

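Values of the 35 genes under up to 20 alternatives each gave 668 results on the same side of the threshold. Of the others 22 were calls lost and 9 calls gained, and 0 calls were reversed in direction. For genes without a call the direction was not counted. Some of these changed sign, such as Farsa, at 0.09 in the main fit and -0.09 with the mean of probe sets. The 9 cytosolic calls became 3 with the leukocyte marker covariate and 4 without both leukocyte extremes, an alternative added after seeing the data, while the median change was -0.22 in both, against -0.24. Leaving out 1 array gave 7 to 10 cytosolic genes lower with medians of -0.29 to -0.20, and 1 to 2 mitochondrial genes higher (2 without WT replicate 4, Nars2 and Iars2) with medians of 0.10 to 0.13. No mitochondrial gene was higher after quantile normalization, with the leukocyte marker covariate, at a threshold of 0.01 or without both extremes (0 in each). The cytosolic median was -0.27 after quantile normalization, and the mitochondrial median 0.05 after it (11 of 16 changes above 0, against 14), 0.16 after subtracting array medians and 0.10 with the mean of probe sets. Associated factors called numbered 2 after quantile normalization, after subtracting array medians and with an intensity trend, 3 at a threshold of 0.1, and 1 to 2 without 1 array (2 without WT replicate 2). The causes of these shifts were not tested. The share of higher genes among all called ones was 68.4%, and 56.7% and 78.9% after these scalings. With the replicate block 9 cytosolic genes were lower and 1 mitochondrial gene higher, as without it, while 491 genes were lower and 978 higher in all, against 726 and 1569. The mean of the Y-linked genes as a covariate also gave 9 cytosolic genes lower and 1 mitochondrial gene higher. In all 612 genes were then lower and 1245 higher. Pairs of the same amino acid with the genotypes apart numbered 11 to 13 of 16.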
